A study of Mus musculus with 2 samples.

Results

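The proteasome subunit genes are the genes whose symbol begins with Psma, Psmb, Psmc, Psmd, Psme, Psmf or Psmg followed by a digit and that had at least 10 UMIs over both deposited matrices. Each UMI (unique molecular identifier) stands for a single captured RNA molecule. Of the 32285 genes listed, 50 had such a symbol and 48 had enough UMIs. Psma8 had 0 UMIs and Psmb11, the subunit of the thymus-specific proteasome, had 2, so both were under the minimum. The rule takes in assembly factors, activators and an inhibitor beside the subunits proper. It also takes in Psmc3ip, whose product acts in meiotic recombination and is not a proteasome subunit.

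The cells were late promyelocytes from the leukemic bone marrow of mice, transformed by PLZF/RARA, a fusion of the zinc finger protein PLZF with the retinoic acid receptor alpha. By the labels the cells of both groups carried the fusion, and the sort took cells with CD45.2, c-Kit, Gr1 and the Fcγ receptor on their surface and without CD34. The retinoic acid group was given 0.8 to 1 mg retinoic acid into the peritoneum, and the vehicle group corn oil with 10% DMSO by the same route, over 7 days. A cohort held 3 to 5 mice, and the number of mice behind each library, their strain and age, and the promoter that drives the fusion are not given in the sources used here. Each group was 1 library of single cells prepared with 10x Genomics 3′ v2 chemistry. No difference below therefore has a replicate check, no test was made, and the intervals cover counting error only.

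The proteasome degrades proteins that carry ubiquitin chains. Its barrel, the 20S core, is built from stacked rings of alpha and beta subunits, and the proteolytic sites sit on the beta1, beta2 and beta5 subunits inside. The 19S cap recognises ubiquitinated proteins, removes the chain and unfolds the substrate with a ring of ATPases. In cells of the blood lineage and after interferon-gamma, the catalytic subunits Psmb6, Psmb7 and Psmb5 can be replaced in new particles by Psmb9, Psmb10 and Psmb8, which gives the immunoproteasome, known for making peptides for MHC class I.

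The cells kept numbered 5476 in the vehicle library (99107718 UMIs, median 16749.5 per cell) and 7140 in the retinoic acid library (110088247 UMIs, median 14604 per cell). The cell barcodes of 11 cells occurred in both libraries. Neutrophil maturation genes, 20 granule and late neutrophil genes such as Camp and S100a8, made up 0.236% of UMIs in vehicle cells and 6.48% in retinoic acid cells. On a scale of counts set to the same library total (CPM), 19 of the 20 were higher in the retinoic acid library. Cxcr2 went the other way, with 16.6 CPM (vehicle) and 6.82 CPM (retinoic acid). Of the 64790 CPM of the list after retinoic acid, Camp supplied 18200, Ngp 14010, S100a9 13874 and S100a8 13352. Genes of the promyelocyte stage did not all match the label in both libraries. Ctsg, a primary granule protease, had 6444 CPM (vehicle) and 5979 CPM (retinoic acid), but Mpo, the myeloperoxidase of the same granules, was at 311 and 0.4996 CPM. Kit, a gene of the sort, was at 19.3 and 16.7 CPM, while Cd34, whose product the sort selected against, had 53.8 CPM (vehicle) and 0.118 CPM (retinoic acid). Markers of other cell types were present at unequal levels. Mast cell and basophil markers summed to 806 CPM in the vehicle and 68.1 CPM after retinoic acid, with 2 of the 9 at 0 in both. Cpa3, a mast cell protease, supplied 569.9 CPM of the vehicle sum and 0.0999 CPM after retinoic acid, while the highest proteasome gene, Psmb5, was at 528.8 CPM in the vehicle. Monocyte, macrophage and dendritic markers summed to 173 and 21.4 CPM, with 1 of 11 at 0 in both. Eosinophil markers summed to 105 and 27.9 CPM, erythroid and megakaryocyte markers to 32.9 and 1.32 CPM, and B cell markers to 2.56 and 2.32 CPM. Of the T and NK markers, Nkg7 supplied 1283 of 1285 CPM in the vehicle and 574.9 of 575.4 CPM after retinoic acid, and of the stroma and endothelium markers Pecam1 supplied 80.7 of 80.8 CPM. The part of these differences, of such cells and of the granule genes in the proteasome values was not tested, except that values with the maturation genes left out of the total are given below.

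Proteasome transcripts together took 7478 CPM of the vehicle library and 8078 CPM of the retinoic acid library, which is 0.748% and 0.808% of all UMIs. The log2 ratio of the sums, retinoic acid over vehicle, was 0.11 (95% counting interval 0.11 to 0.12). The median over the 48 genes was 0.09, with quartiles of −0.03 and 0.24, against a median of −0.08 over the 14569 genes with at least 10 UMIs and 0.01 over the 5548 genes that reached 20 CPM in at least 1 library. Of the 48 genes, 33 had a ratio above 1 (68.8%), against 43.2% of all genes with at least 10 UMIs and 50.5% of those with at least 20 CPM. As every group is 1 library, a gene is said to have risen or fallen only where its CPM differed at least 1.5-fold. By that limit 2 genes rose, Psmb9 and Psmc3ip, which is 4.17% against a background of 11.4% of genes with at least 10 UMIs and 8.15% of those with at least 20 CPM. None fell, against 23.6% and 10.1%.

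Most proteasome genes lay near equality. Within 0.32 of equality on the log2 scale were 37 of the 48 (77.1%), against 60.6% of genes with at least 20 CPM. Higher by at least 0.32 were 10 genes, against a background of 20.4% with at least 10 UMIs and 19.4% with at least 20 CPM. Lower by that much was Psme4 alone, against 33.5% and 20%. At a limit of 2-fold Psmb9 alone was higher, against 5.72% and 3.03%, and none was lower, against 15.1% and 5.05%. The 47 genes that reach 20 CPM are all but Psme2b.

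**Figure D1:**
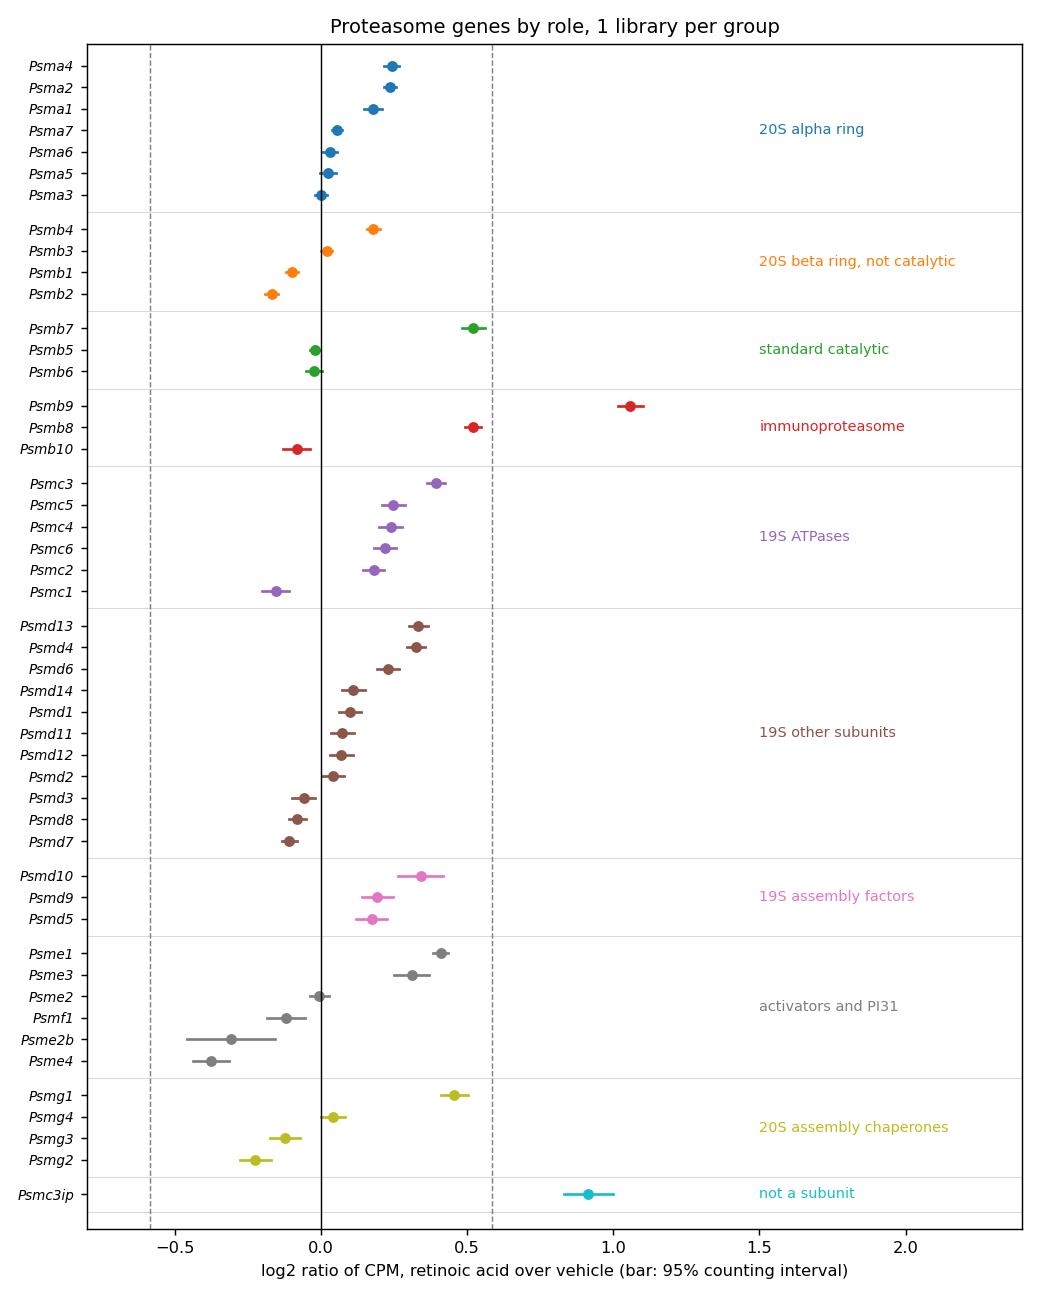
Log2 ratio of CPM, retinoic acid over vehicle, for each of the 48 genes, grouped by role, with bars for the 95% counting interval (1 library per group). Psmb9 stands farthest to the right at 1.06 and Psme4 farthest to the left at −0.38, and the 7 alpha ring genes lie between 0.00 and 0.24.

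The immunoproteasome genes had the highest summed ratio among the roles of the proteasome genes, and the standard catalytic genes had one near equality. Psmb9, the beta1 subunit of the immunoproteasome, had a level of 62.8 CPM (61.2 to 64.4) in vehicle cells and one of 130.9 CPM (128.7 to 133.0) in retinoic acid cells, a log2 ratio of 1.06 (1.02 to 1.10). Psmb8, its beta5 subunit, had 179.2 and 256.9 CPM, a log2 ratio of 0.52 (0.49 to 0.55). Psmb10, its beta2 subunit, had 73.6 and 69.6 CPM, a log2 ratio of −0.08 (−0.13 to −0.04). The members of the immunoproteasome thus did not move alike: Psmb9 rose, Psmb8 was higher by less than the 1.5-fold limit, and Psmb10 was nearly level. The direction of Psmb10 was not stable, since its log2 ratio was 0.01 with the maturation genes left out of the total. The summed immunoproteasome level was 315.6 CPM in vehicle cells and 457.3 CPM in retinoic acid cells, a log2 ratio of 0.54 (0.51 to 0.56), and 0.37 without Psmb9.

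Among the standard catalytic subunits, Psmb5 (beta5) had 529 and 521 CPM and Psmb6 (beta1) had 214 and 210 CPM, log2 ratios of −0.02 for both. Both turned to 0.07 with the maturation genes left out of the total. Psmb7, the standard beta2 subunit with trypsin-like activity, stood apart with 87.1 and 125.1 CPM, a log2 ratio of 0.52 (0.48 to 0.56). The summed level of the 3 genes was 829.6 and 856.6 CPM, a log2 ratio of 0.05 (0.03 to 0.06), and −0.02 without Psmb7. With the TMM scaling, which raised every log2 ratio by 0.08, and with the maturation genes left out of the total, Psmb7 and Psmb8 also passed the 1.5-fold limit. Psmb7 overlaps Nek6 on the opposite strand. Whether the counting used strand is not given in the sources used here. It is thus not known whether reads of Nek6 were counted to Psmb7. The same uncertainty holds for Psma4, Psmc3, Psmc3ip, Psmd1, Psmd13, Psmd5, Psmd9 and Psme1, which also overlap a protein-coding gene on the opposite strand.

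The share of each catalytic pair's UMIs that came from the immunoproteasome gene does not depend on the library scaling. For the beta1 pair the share of Psmb9 was 22.7% (exact binomial interval 22.2 to 23.2) in the vehicle and 38.4% (37.9 to 38.9) in the retinoic acid library, a difference of 15.7 percentage points (Newcombe interval 14.96 to 16.4). For the beta5 pair the share of Psmb8 was 25.3% and 33.0%, a difference of 7.70 points (7.25 to 8.15). For the beta2 pair the share of Psmb10 went the other way, from 45.8% to 35.7%, a difference of −10.1 points (−11.1 to −9.07). Over the 6 genes the immunoproteasome share was 27.6% and 34.8%. These are shares of UMIs from the 3′ ends of different transcripts, and how well each transcript was captured was not measured, so they are not shares of assembled particles.

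**Figure D2:**
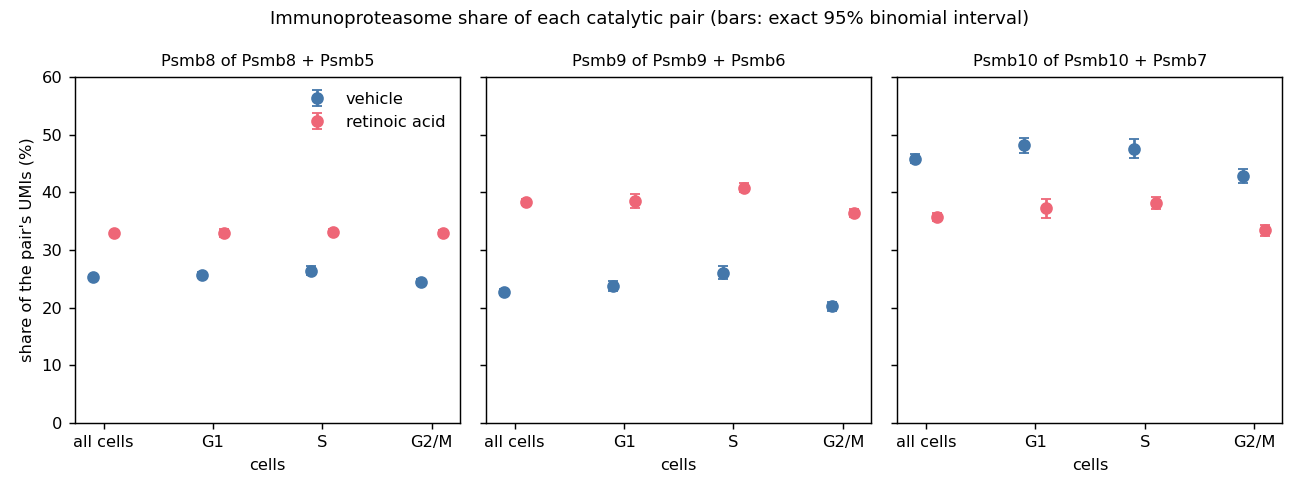
Share of each catalytic pair's UMIs that came from the immunoproteasome gene, in percent, for all cells and for cells called G1, S and G2/M, with exact 95% binomial intervals. In all 3 phases the share is higher in the retinoic acid library for beta5 and beta1 and lower for beta2.

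Psmb9 and Psmb8 are neighbours in the MHC region of chromosome 17, with the peptide transporter genes Tap1 and Tap2 between and beside them. In GENCODE M21 (GRCm38), Psmb9 (ENSMUSG00000096727) lies at chr17:34181987-34187764 on the minus strand and Psmb8 at chr17:34197721-34201454 on the plus strand. Tap1 begins within Psmb9 on the opposite strand, the gene bodies sharing 212 bases, and ends 495 bases before Psmb8. Psmb10 lies apart, at chr8:105935735-105938444 on the minus strand. Tap1 rose from 22.8 to 37.2 CPM, a log2 ratio of 0.71 (0.63 to 0.78), while Tap2, 2072 bases beyond Psmb8, had 101.8 and 88.6 CPM, a log2 ratio of −0.20. The genes of this stretch thus did not all move in 1 direction. The overlap of Psmb9 and Tap1 lies at the start of both genes, and reads from it cannot be assigned to either without strand.

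The bases before the start sites of Psmb9, Psmb10, Psmb5 and Psmb6 are shown because Psmb9 and Psmb10 share a role but differed in their ratios. The RefSeq table (GRCm38.p6) held windows of 300 bases, 250 before and 50 after a start site, for 41 of the 48 genes. Motifs were searched on both strands, with matches in capitals. Those reported are GAAA with 2 free bases before a second GAAA, the motif of interferon regulatory factors, TGACNNNGC, the antioxidant response motif read by NRF factors, CCAAT, and GGG with 2 free bases before TTTCC, an NF-kappaB motif. No match in the sequences shown overlapped another. Psmb9 is shown by 30 bases around its match, since its window lies wholly within annotated exons of Psmb9 and Tap1. Psmb10, Psmb5 and Psmb6 are shown as the part before the start site that lies outside annotated exons. Of the other catalytic genes, Psmb7 had no window and Psmb8 is not shown. Psmb9 is at chr17:34187331-34187360 (minus strand), Psmb10 at chr8:105938445-105938642 (minus), Psmb5 at chr14:54618023-54618245 (minus) and Psmb6 at chr11:70525107-70525356 (plus).
Psmb9: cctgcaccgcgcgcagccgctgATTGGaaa
Psmb10: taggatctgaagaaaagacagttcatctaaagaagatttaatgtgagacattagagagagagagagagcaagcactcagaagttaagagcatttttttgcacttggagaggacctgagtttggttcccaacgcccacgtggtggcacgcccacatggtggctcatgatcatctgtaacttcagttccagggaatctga
Psmb5: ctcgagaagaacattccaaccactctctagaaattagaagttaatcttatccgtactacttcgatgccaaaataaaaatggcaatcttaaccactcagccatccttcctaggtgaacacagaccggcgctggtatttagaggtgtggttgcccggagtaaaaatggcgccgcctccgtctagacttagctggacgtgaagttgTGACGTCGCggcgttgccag
Psmb6: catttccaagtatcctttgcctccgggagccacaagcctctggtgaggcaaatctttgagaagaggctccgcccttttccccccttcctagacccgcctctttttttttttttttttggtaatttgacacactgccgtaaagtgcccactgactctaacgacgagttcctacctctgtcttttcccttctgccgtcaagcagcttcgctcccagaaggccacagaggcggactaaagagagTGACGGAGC

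The window of Psmb9 held a CCAAT on the other strand, from 8 to 4 bases before the start site. The windows of Psmb5 and Psmb6 each held the antioxidant response motif, and that of Psmb10 held none of those reported. The antioxidant response motif occurred in 12.4% of all 32851 windows and in 6 of the 41 genes with a window, the interferon regulatory factor motif in 3.44% and in 5, CCAAT in 37.4% and in 14, and the NF-kappaB motif in 1.63% and in none. A match describes the letters and is not a site. The median GC content was 58.2% over the windows of these genes and 52.7% over all windows.

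In the rest of the 20S core the differences were small. The alpha ring, which forms the gate of the barrel, summed to 2011 CPM (vehicle) and 2155 CPM (retinoic acid), a log2 ratio of 0.10 (0.09 to 0.11). All 7 alpha genes had ratios above 1, except that Psma3, at 358.4 and 358.5 CPM, was at −0.03 when both libraries were set to the vehicle's mix of cell cycle phases. Psma4, at 206 and 244 CPM, and Psma2, at 312 and 368 CPM, had the highest alpha ratios, with a log2 ratio of 0.24 each. Both are uncertain, since Psma4 overlaps a protein-coding gene on the opposite strand and Psma2 overlaps one on the same strand. Psma7, at 489 and 508 CPM, had a log2 ratio of 0.06, and Psma1, Psma5 and Psma6 lay between 0.02 and 0.18. Among the beta genes without a catalytic site, Psmb4 (298 and 337 CPM) and Psmb2 (295 and 263 CPM) lay apart at log2 ratios of 0.18 and −0.17. Psmb3 was at 0.02 and Psmb1 at −0.10, and the 4 genes together had 1399 and 1388 CPM.

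The 19S ATPases, which unfold the substrate, summed to 607 and 709 CPM, a log2 ratio of 0.22 (0.21 to 0.24). Of the 6 ATPase genes 5 had ratios above 1, under each of the scalings tried. Psmc3 was highest with 141 and 186 CPM, a log2 ratio of 0.40 (0.36 to 0.43), but it overlaps Slc39a13 on the opposite strand and is uncertain. Psmc2, Psmc4, Psmc5 and Psmc6 lay between 0.18 and 0.25, and Psmc1, the exception, had 76.4 and 68.6 CPM, a log2 ratio of −0.15. The ATPase genes thus did not all lie on 1 side of equality, although each of the 6 products takes a place in the same ring.

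The 11 other 19S subunits summed to 1411 and 1497 CPM, a log2 ratio of 0.09. Of these, 8 had ratios above 1 and 3 below, with 7 to 10 above 1 over the alternatives. Psmd4, a ubiquitin receptor, had 146 and 183 CPM (log2 ratio 0.32), and Psmd13 had 132 and 166 CPM (0.33). Psmd6 was at 0.23. Psmd14, the deubiquitinase that removes the ubiquitin chain, was at 0.11 with 96.5 and 104 CPM, while its partner Psmd7 had 244 and 227 CPM, a log2 ratio of −0.11. The large scaffold subunits Psmd1 and Psmd2 were at 0.10 and 0.04, Psmd11 and Psmd12 at 0.07 each, and Psmd3 and Psmd8 at −0.06 and −0.08. Psmd11, Psmd3 and Psmd8 changed sign under at least 1 alternative.

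Assembly factors were uneven. Psmd5, Psmd9 and Psmd10, which help to build the ATPase ring, had log2 ratios of 0.17, 0.19 and 0.34, with Psmd10 (gankyrin) at 24.3 and 30.8 CPM. Among the chaperones of the 20S core, Psmg1 had 63.2 and 86.8 CPM, a log2 ratio of 0.46 (0.41 to 0.50). Its partner Psmg2, with which it forms a heterodimer, had 60.5 and 51.8 CPM, a log2 ratio of −0.22 (−0.28 to −0.17). Both had ratios on the same side of 1 under each alternative. Psmg3 and Psmg4, the other pair, were at −0.12 and 0.04, the latter with a sign that changed under at least 1 alternative.

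The activators open the gate of the core without the 19S cap. Psme1 and Psme2 encode the subunits of PA28 alpha/beta, a complex known as inducible by interferon-gamma, and they differed from each other. Psme1 had 206 and 273 CPM, a log2 ratio of 0.41 (0.38 to 0.44), and Psme2 had 149 and 148 CPM, a log2 ratio of 0.00. Psme1 overlaps Emc9 on the opposite strand and is uncertain. Psme3, the nuclear PA28 gamma, had 41.3 and 51.2 CPM, a log2 ratio of 0.31. Psme4, the activator PA200, was the lowest of all 48 genes, with 46.7 and 36.0 CPM, a log2 ratio of −0.38 (−0.44 to −0.31). Psmf1, the inhibitor PI31, had 37.7 and 34.8 CPM, a log2 ratio of −0.12. Psme2b, a near-identical copy of Psme2 whose reads may have been split between them, had 7.74 and 6.26 CPM and is uncertain.

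Psmc3ip, the gene that is no subunit, was at 17.4 CPM (interval 16.6 to 18.2) in the vehicle and rose to 32.8 CPM (interval 31.7 to 33.9), with a log2 ratio of 0.91 (0.83 to 1.00). Of the 48 genes it had the largest difference between S and G1 cells in both libraries. In vehicle cells called S phase it was 3.26 higher than in G1 on the log2 scale, and in retinoic acid cells 2.48, against medians of 0.37 and 0.14 over the 48 genes. Its ratio between libraries was 1.22 in G1, 0.43 in S and 0.30 in G2/M, so within S and G2/M cells it did not reach the 1.5-fold limit. Without it, Psmb9 alone of the 47 remaining genes rose. Psmc3ip overlaps Mlx on the opposite strand, so its counts are uncertain.

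Phases were called from lists of S and G2/M genes on cells thinned to 5000 UMIs, which left 5282 vehicle and 6659 retinoic acid cells. Cells called G1 made up 52.6% of the vehicle and 25.3% of the retinoic acid cells, S 19.1% and 38.4%, and G2/M 28.4% and 36.3%. These shares depended on scaling each gene's values before the call. When values were not scaled, G1 made up 54.4% and 29.5%, S 9.11% and 24.0%, and G2/M 36.5% and 46.4%. Unless stated, values by phase use the scaled calls. The S list summed to 1914 and 2798 CPM and the G2/M list to 5713 and 7646 CPM. Of the 48 genes, 44 in vehicle cells and 42 in retinoic acid cells had a lower CPM in G1 than in both S and G2/M. The share of all genes with this order is not given here, so it cannot be said whether proteasome genes stand apart in it. The median UMIs per cell also differed by phase, from 13877 in G1 to 24235 in G2/M in the vehicle and from 11047 to 19326 in the retinoic acid library.

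Within phases the libraries differed in different ways. In G1 the summed proteasome genes had 6518 CPM (vehicle) and 7380 CPM (retinoic acid), a log2 ratio of 0.18 (0.17 to 0.19), with a median of 0.19 over the genes. In S they had 8241 and 8078 CPM, a log2 ratio of −0.03 (−0.04 to −0.02), and in G2/M 8135 and 8429 CPM, 0.05 (0.04 to 0.06). By these sums the vehicle had the wider spread between G1 and S, and the libraries were closest in S. By the median over the genes they were closest in G2/M, at 0.02 against −0.05 in S. In G1 4 genes rose, Psmb9, Psmc3ip, Psmb7 and Psmg1 (8.33%), against a background of 9.85% of genes with at least 20 CPM in G1 cells. Psmc3ip, at 4.51 CPM (vehicle) and 10.5 CPM (retinoic acid) in G1 cells, was itself below that 20 CPM limit, as was Psme2b, so the 2 shares come from unlike sets. In S and in G2/M Psmb9 alone rose, against 6.36% and 6.38%, and no gene fell in any phase, against 13.8% in G1, 10.3% in S and 9.24% in G2/M. Of the 48 genes 32 had a ratio on the same side of 1 in all 3 phases, 20 higher and 12 lower. How many of all genes did so is not given here, so this cannot be called a trait of proteasome genes.

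**Figure D3:**
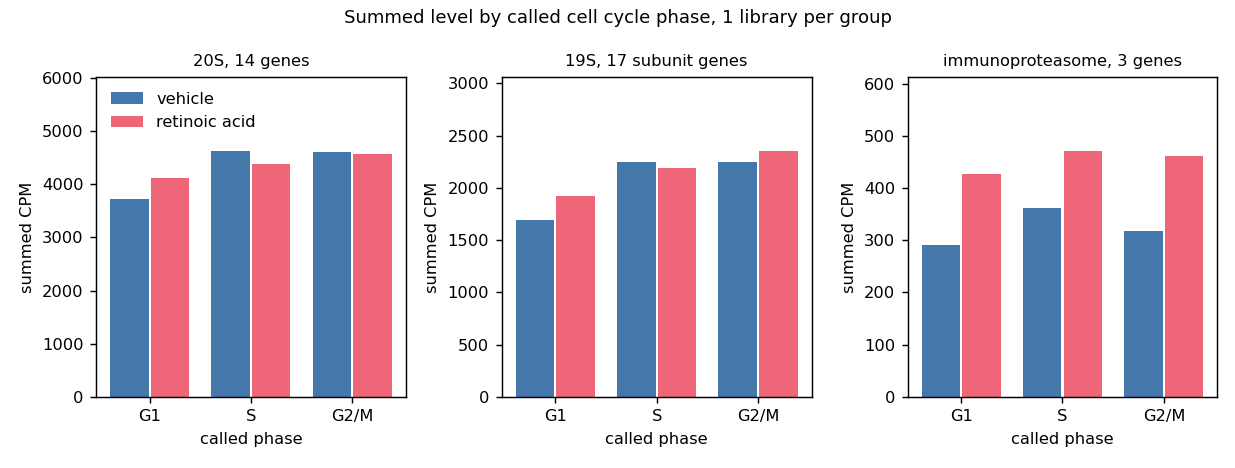
Summed CPM of the 14 standard 20S genes, the 17 genes of 19S subunits and the 3 immunoproteasome genes in cells called G1, S and G2/M, for the vehicle and the retinoic acid library. The immunoproteasome bars are higher in the retinoic acid library in all 3 phases, while the 20S bars are higher in G1 and lower in S.

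The immunoproteasome kept its difference within each phase. In G1 its 3 genes summed to 291 (vehicle) and 427 CPM (retinoic acid), in S to 362 and 471 CPM, and in G2/M to 318 and 461 CPM, which are log2 ratios of 0.55, 0.38 and 0.54. Psmb9 had log2 ratios of 1.09, 0.81 and 1.08 in the 3 phases. For the 14 standard 20S genes the G1 sums were 3725 and 4108 CPM, the S sums 4627 and 4375 CPM, and the G2/M sums 4602 and 4578 CPM. The share of Psmb9 in the beta1 pair differed by 14.8, 14.8 and 16.2 points, that of Psmb8 by 7.30, 6.74 and 8.49 points, and that of Psmb10 by −10.9, −9.45 and −9.48 points.

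Cells were next ordered by the share of their UMIs in the 20 neutrophil maturation genes and divided into 4 groups of near-equal size in each library. Over the whole retinoic acid library these UMIs came mostly from Camp, Ngp, S100a9 and S100a8. The median share was 0.88% in the lowest and 20.5% in the highest retinoic acid group, and 0.04% and 0.28% in the vehicle groups. Median depth was 17945 UMIs in the lowest and 10784 in the highest retinoic acid group, and the share of G1 cells was 21.5% in the lowest and 40.7% in the highest group. Since the maturation genes take UMIs from all others, values here have them left out of the total. On that scale the proteasome genes summed to 8954, 8904, 8559 and 7767 CPM over the retinoic acid groups from low to high, and to 7571, 7562, 7436 and 7454 CPM over the vehicle groups. On that scale every retinoic acid group was above every vehicle group. With all genes in the total the order turned for the highest retinoic acid group, which had 6124 CPM against 7404 to 7566 CPM in the vehicle groups, while the other retinoic acid groups had 8028 to 8875 CPM.

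Between the highest and the lowest retinoic acid group, 40 of the 48 genes were lower and 8 higher, with a median log2 ratio of −0.20. The share of all genes that were lower, and their median, are not given here for either total. It therefore cannot be said whether this direction is particular to the 48 genes. At least 1.5-fold lower were 4 genes (8.33%), against a background of 11.2% of genes with at least 20 CPM, and none was as much higher, against 14.8%. The 4 genes were Psmg3 (70.8 to 38.03 CPM), Psmb10 (86.3 to 49.1 CPM), Psmg4 (111 to 69.8 CPM) and Psmd7 (269 to 175 CPM), with log2 ratios of −0.90, −0.81, −0.67 and −0.62. Psmg3 and Psmg4, the partners of 1 chaperone pair, were thus both among them. Psmb9 was at the other end of the 48 genes, with 137 and 151 CPM, a log2 ratio of 0.14. With all genes in the total all 48 were lower, with a median of −0.53, and 21 were at least 1.5-fold lower, against a background of 32.5%, and none as much higher, against 7.7%. Psmb9 then was at −0.19, so its direction turned with the scaling.

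The catalytic subunits parted along this order. Psmb10 had 86.3, 81.6, 68.1 and 49.1 CPM over the 4 retinoic acid groups and 76.2, 77.8, 72.4 and 68.6 CPM over the vehicle groups. Psmb8 went from 287 CPM in the lowest to 252 CPM in the highest retinoic acid group, and Psmb6 from 241 to 188 CPM. Psmb7 had 138 CPM in each of the first 3 groups and 113 CPM in the highest, while Psmb5 had 539 and 552 CPM at the ends. The share of Psmb9 in the beta1 pair was 36.2% in the lowest and 44.5% in the highest retinoic acid group, that of Psmb8 34.8% and 31.3%, and that of Psmb10 38.6% and 30.2%. In G1 cells of the retinoic acid library alone, Psmb10 was at 88.7 CPM in the lowest and 43.7 CPM in the highest group, so its difference was present within a single phase.

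**Figure D4:**
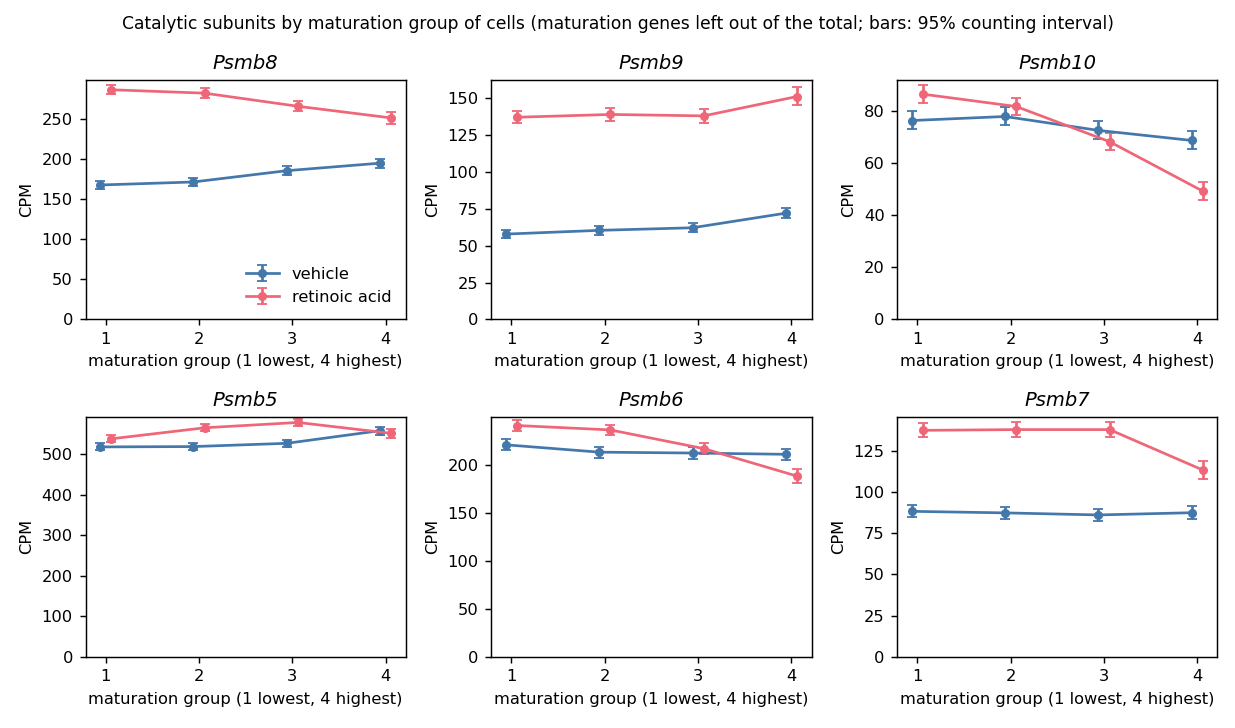
CPM of the 6 catalytic genes, with the maturation genes left out of the total, in 4 groups of cells of each library ordered by their share of maturation UMIs (1 lowest, 4 highest), with 95% counting intervals. Psmb10 declines from 86.3 to 49.1 CPM over the retinoic acid groups, while Psmb9 lies between 137 and 151 CPM.

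A set of 474 retinoic acid cells had a maturation share at or below 0.58%, the value under which 95% of vehicle cells lie. Against the vehicle cells, with all genes in the total, 41 of the 48 genes were higher in these cells and the median log2 ratio was 0.28. The share of all genes that were higher is not given here for this contrast. Cells called G1 made up 26.4% of these cells and 52.6% of the vehicle cells. The part of phase in the difference was not tested. In the 474 cells 5 genes rose (10.4%), against a background of 5.8%, and none fell, against 7.63%. The genes that rose were Psmb9, Psmc3ip, Psmb8, Psmb7 and Psmg1, with log2 ratios of 1.15, 0.78, 0.70, 0.62 and 0.60. Psmb10 had 73.7 CPM in the vehicle cells and 93.8 CPM in these cells, a log2 ratio of 0.35. The median maturation share of these cells was 0.38%, above the medians of all 4 vehicle groups, so they lie at the upper end of the vehicle range.

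Per cell, thinned to 5000 UMIs, the proteasome genes gave a median of 35 UMIs per vehicle cell, with quartiles of 29 and 42, and of 39 UMIs per retinoic acid cell, with quartiles of 32 and 46. Unthinned, the median was 0.718% of the UMIs of a vehicle cell and 0.790% of those of a retinoic acid cell. By phase the medians were 31, 40 and 40 UMIs in G1, S and G2/M of the vehicle, and 34, 39 and 41 in the retinoic acid library. The spread was widest in G1 cells of the retinoic acid library, where 90% of cells lay between 15 and 56 UMIs and the variance was 4.71 times the mean, against 2.55 in vehicle G1 cells. The mean of the 3 immunoproteasome genes was 1.57 UMIs per thinned vehicle cell and 2.24 per thinned retinoic acid cell, and that of the 3 standard catalytic genes 4.04 and 4.15.

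**Figure D5:**
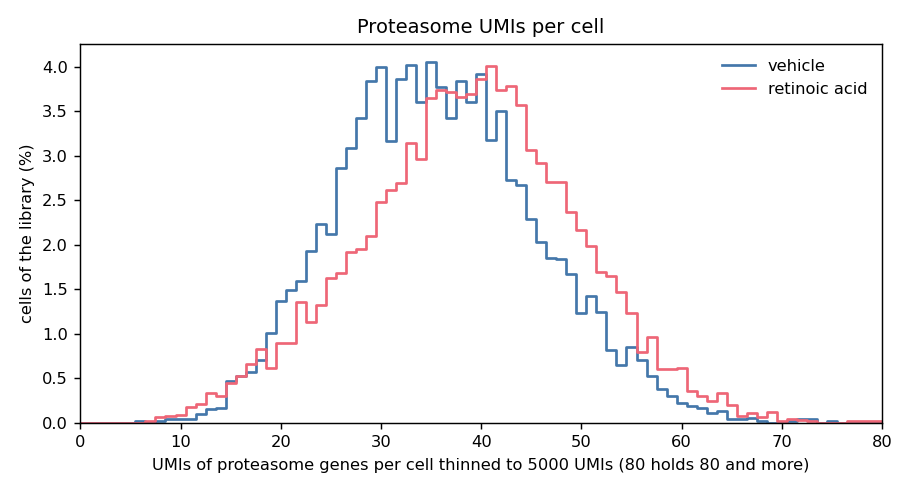
Distribution over cells of the UMIs of proteasome genes, in cells thinned to 5000 UMIs, as percent of each library's cells. Both libraries form a single hump, with medians of 35 UMIs in the vehicle and 39 UMIs in the retinoic acid library.

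Other genes of the ubiquitin-proteasome pathway did not share a direction. Of 27 listed genes, 13 were higher and 14 lower, with a median log2 ratio of −0.01. This split lay near the background, in which 43.2% of genes with at least 10 UMIs and 50.5% with at least 20 CPM were higher. Of the 27, 2 rose (11.4% of all genes with at least 10 UMIs did, and 8.15% of those with at least 20 CPM) and none fell (23.6% and 10.1%). Sem1, a small subunit of the 19S cap whose symbol lies outside the rule, rose from 882 to 1524 CPM, a log2 ratio of 0.79 (0.78 to 0.80). Pomp, the chaperone that completes the 20S core, had 246 and 300.2 CPM, a log2 ratio of 0.29. Ubb, a polyubiquitin gene, was at −0.40. Vcp, the segregase that extracts ubiquitinated proteins, was at −0.35.

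Genes of antigen presentation and the interferon response were listed beside the immunoproteasome. Of 13, 12 had at least 10 UMIs, of which 11 were higher and 1 lower, with a median log2 ratio of 0.38, and 5 rose and none fell. Over all genes with at least 10 UMIs 43.2% were higher, 11.4% rose and 23.6% fell, and over those with at least 20 CPM 50.5%, 8.15% and 10.1%. B2m, the light chain of MHC class I, rose from 569 to 1053 CPM, a log2 ratio of 0.89, and Tap1 is given above. The class I heavy chains H2-K1 and H2-D1 were at 0.36 and 0.30, the receptor chain Ifngr1 at 0.40, the trimming peptidase Erap1 at 0.32 and the loading factor Tapbp at 0.05.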

How the data were processed

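Sorted promyelocytes were measured by droplet single-cell RNA sequencing, 1 library per group. The authors deposited whole-number UMI counts for every gene in every cell, without normalisation. Per the file headers they come from Cell Ranger 4.0.0. The builds mm10 and GRCm38.p4 are named in the submitters' processing notes. The annotation, the use of strand and the rule that separated cells from droplets are not given in the sources used here.

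From the counts, cells with at least 1000 UMIs, 500 genes and at most 10% mitochondrial UMIs were kept, which removed 310 of 5786 vehicle and 276 of 7416 retinoic acid barcodes. Scrublet (scanpy 1.11.5) called 1 and 7 cells doublets, 0.0183% and 0.098%, so it was taken not to have worked and no doublets were removed. Counts were summed per library, expressed as CPM and compared as log2 ratios with 0.5 counts added to each sum. Intervals are exact Poisson for levels, exact binomial for ratios (conditional on both counts) and pair shares, and Newcombe's for differences of shares, all at 95% and for counting error only. UMIs mark molecules, but mice, sorts and preparations are not replicated.

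Cells with at least 5000 UMIs were thinned to 5000 for per-cell values and phases, leaving out 194 vehicle and 481 retinoic acid cells. Phases were called with scanpy on log-normalised, z-scaled values; the scaling was adopted after phase shares had been seen. All members are named, and pathway genes are named only from those that reach 20 CPM in at least 1 library. The members, gene lists and limits were chosen with earlier results of these data known. TMM came from edgeR 4.0.16, used for scaling only. The calculation was tested on simulated data. All 50 matching identifiers were found in GENCODE M21, which gave gene coordinates, and RefSeq gave the promoter windows. Genes overlapping a protein-coding neighbour are uncertain. On the same strand there were 4 (Psma2, Psmd1, Psme2b, Psmg3). On the opposite strand there were 10 (Psma4, Psmb7, Psmb9, Psmc3, Psmc3ip, Psmd1, Psmd13, Psmd5, Psmd9, Psme1). Results were recomputed under other scalings, cell filters, fold limits and phase mixes. Some members of the gene lists and 1 of the motifs searched are not reported here.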

Additional observations from a re-analysis of the deposited data

How the results depend on the processing

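With 1 library per group no replicate could be left out, and depth limits only genes of few counts. No paired analysis was possible because there was a single library for each treatment. Under TMM scaling 4 genes passed 1.5-fold (Psmb7, Psmb8, Psmb9, Psmc3ip), the median log2 ratio was 0.17, and the summed log2 ratios were 0.62 for the immunoproteasome, 0.13 for the standard catalytic and 0.19 for all genes. With the maturation genes left out of the total the same 4 passed, and these values were 0.18, 0.63, 0.14 and 0.20. With equal weight for every cell the standard catalytic ratio was 0.025 and the sum of all genes 0.11. With the vehicle's shares of phases 1 gene passed (Psmb9), the immunoproteasome ratio was 0.51 and the sum 0.10. With phases called on unscaled values, an alternative chosen after seeing the data, 2 genes passed (Psmb9, Psmc3ip), and these ratios were 0.51 and 0.092. A limit of 0.32 on the log2 scale gave 11 genes and a 2-fold limit gave 1. The alternatives without Psmc3ip (1 gene), without Psmb7 (−0.022 for the standard catalytic ratio) and without Psmb9 (0.37 for the immunoproteasome ratio) were also chosen after seeing the data. Of the 48 genes, 39 kept their sign under every scaling, filter and phase alternative, 30 higher and 9 lower. Psma3, Psmb10, Psmb5, Psmb6, Psmd11, Psmd3, Psmd8, Psme2 and Psmg4 did not. How many of all genes kept their sign is not given here. The cause of these shifts was not tested, except that TMM and the smaller total move all genes by 0.08 and 0.09. The pair shares moved by less than their counting intervals under each alternative.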
